A study of Oryza sativa with 8 samples.

Results

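The genes described here are 10 rice genes with which roots acquire iron, taken by their locus identifiers from the 37869 genes of the deposited table. They encode the transcription factor *IRO2* (Os01g0952800), the nicotianamine synthases *NAS1* (Os03g0307300), *NAS2* (Os03g0307200) and *NAS3* (Os07g0689600), the nicotianamine aminotransferase *NAAT1* (Os02g0306401), the exporter *TOM1* (Os11g0134900), the YSL transporters *YSL15* (Os02g0650300) and Os02g0649900, and the IRT transporters Os03g0667500 and Os03g0667300. Expression was measured by strand-specific RNA sequencing of roots from 2-week-old plants under normal conditions, and the 8 libraries used were 4 from *ROX* plants and 4 from nontransgenic (NT) plants. *ROX* plants overexpress *OsERF48*, an ERF transcription factor gene, under the root-specific *RCc3* promoter in the cultivar Ilmi, and the study's *ROX* samples came from 2 homozygous transgenic lines. NT plants were Ilmi without the transgene, and all plants were started on MS medium and then grown in pots of soil in a greenhouse.

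The library names fall into 2 styles, here called the Set and the Root libraries, each with 2 *ROX* and 2 NT libraries. The names give neither the transgenic line nor the biological replicate, and those of the Set libraries give neither the promoter nor the tissue. The Set libraries of transgenic plants were counted as *ROX* because these are the only *OsERF48* transgenic samples listed for the study. Since technical replicates were also sequenced, libraries of a pair may come from the same plants, and p-values measure the spread between libraries. What else differed between the Set and Root libraries is not given in the sources used here. Their difference therefore cannot be told apart from growth, harvest or sequencing. In *ROX* it also cannot be told apart from the transgenic line, which NT plants do not have.

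Grasses acquire iron by secreting mugineic acids, which bind ferric iron in the soil. Nicotianamine synthases join molecules of S-adenosylmethionine into nicotianamine, an aminotransferase and a reductase turn it into deoxymugineic acid, TOM1 exports the product from the root, and YSL15 takes up its iron complex. Rice also takes up ferrous iron directly through IRT transporters, as an adaptation to flooded soil. IRO2 is a basic helix-loop-helix regulator of this pathway, and in rice its targets are known to rise when iron is scarce.

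The depth was estimated from the steps of the FPKM values (fragments per kilobase of transcript, scaled to the size of the library) as 45400000 to 48600000 fragments in the Set libraries and 36800000 to 42600000 in the Root libraries. *OsERF48* (Os08g0408500) averaged 714 ± 144 FPKM in *ROX* and 62.6 ± 4.66 FPKM in NT among the Set libraries, and 467 ± 4.02 FPKM in *ROX* and 86.4 ± 0.250 FPKM in NT among the Root libraries (SD, n = 2 each), so all 8 libraries matched their genotype. *RCc3* (Os02g0662000), a root marker and the source of the promoter, had 1581 and 1540 FPKM in Set *ROX*, 1236 and 1608 FPKM in Set NT, 152 and 161 FPKM in Root *ROX*, and 321 and 307 FPKM in Root NT libraries. The 15 marker genes of green tissue summed to 10.3 and 10.9 FPKM in Set *ROX*, 13.0 and 11.7 FPKM in Set NT, 24.6 and 25.9 FPKM in Root *ROX*, and 43.9 and 41.6 FPKM in Root NT libraries. Of these markers 5 were at 0 in both Set *ROX* libraries, and 1 or 2 were at 0 in each of the other 6. The 15 were taken by words in their descriptions, so they include Os02g0725200, described as a SET domain protein. Os02g0610700 made up 5.05 and 6.13 FPKM of the Set *ROX* sums. Os01g0720500 ran against the sums, at 3.58 and 3.06 FPKM in Set *ROX* and 1.70 and 2.44 FPKM in Set NT. In the Root libraries Os01g0720500 had 0.241 and 0.283 FPKM in *ROX* and 0.331 and 0.293 FPKM in NT.

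The regulator *IRO2* lies on chromosome 1 at 41971444 to 41978093 (IRGSP-1.0, as all positions here) and has 2 annotated transcripts, the longest of 2378 bases. It was listed at 117 and 129 FPKM in the Set *ROX* libraries and 97.5 and 126 FPKM in the Set NT libraries. In the Root libraries it had 3.59 and 3.97 FPKM in *ROX* and 2.77 and 2.77 FPKM in NT. The Set and Root values did not overlap, and in each of the 4 kinds of library the pair lay close together beside that gap. The gene Os01g0952900 overlaps *IRO2* by 1016 bases, and with the use of strand in counting not stated their reads cannot be told apart there. Its own pattern was different, at 12.4 to 20.6 FPKM in the Set libraries, 14.3 and 15.1 FPKM in Root *ROX*, and 1.20 and 1.03 FPKM in Root NT.

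*NAS1* and *NAS2* sit side by side on chromosome 3. *NAS2* spans 10926469 to 10927729, *NAS1* spans 10929507 to 10930895, and 1777 bases with no other annotated gene lie between them. The transcripts of 1261 and 1389 bases fill the spans of *NAS2* and *NAS1*, so neither has an annotated intron. *NAS1* had 1481 and 1666 FPKM in Set *ROX* and 775 and 1167 FPKM in Set NT libraries, against 3.46 and 3.63 FPKM in Root *ROX* and 1.20 and 1.09 FPKM in Root NT libraries. By level, which is per length, *NAS1* thus ranked 30 and 24 among all genes in the Set *ROX* libraries and 72 and 43 in the Set NT libraries. It ranked 16932 and 16767 in Root *ROX* and 21920 and 22315 in Root NT. *NAS2* followed the same course, with 1471 and 1632 FPKM in Set *ROX*, 826 and 1178 FPKM in Set NT, 3.92 and 4.19 FPKM in Root *ROX*, and 1.42 and 1.17 FPKM in Root NT libraries. The ratio of *NAS1* to *NAS2* lay between 0.848 and 1.02 in all 8 libraries. These are close paralogs and how reads that fit both were assigned is not stated, so the levels of each one alone are uncertain.

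*NAS3*, on chromosome 7 at 29323098 to 29324607 and also without an annotated intron (1510 bases), behaved differently. It had 61.7 and 77.0 FPKM in Set *ROX*, against 10.2 and 16.8 FPKM in Set NT, and 22.3 and 25.5 FPKM in Root *ROX*, against 7.83 and 7.12 FPKM in Root NT libraries. Every *ROX* library lay above every NT library whichever set they came from, and *NAS3* was the only one of the 10 genes of which this held. Of the 26136 genes tested over the 8 libraries, 2.07% had every *ROX* value above every NT value and 3.30% every *ROX* value below.

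*NAAT1*, which takes nicotianamine on towards deoxymugineic acid, lies on chromosome 2 at 11997254 to 12002625 with a transcript of 1485 bases. It had 355 and 353 FPKM in Set *ROX* and 271 and 363 FPKM in Set NT libraries. The Root libraries held 19.9 and 18.6 FPKM in *ROX* and 33.0 and 33.0 FPKM in NT. Here the *ROX* pair lay below the NT pair in the Root libraries, while the 2 genotypes overlapped in the Set libraries.

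*TOM1*, the exporter, lies on chromosome 11 at 1618494 to 1623978 with a transcript of 1875 bases. It had 214 and 262 FPKM in Set *ROX* and 91.2 and 143 FPKM in Set NT libraries. In the Root libraries it was close to the limit of detection, at 0.313 and 0.201 FPKM in *ROX* and 0.141 and 0.0975 FPKM in NT. These stand for about 35 fragments over both Root *ROX* libraries and 16 over both Root NT libraries, a ratio per depth of 2.13 with an exact 95% interval of 1.15 to 4.13 that covers counting error only. The gene Os11g0134950 shares 5047 bases with *TOM1* and followed it, at 25.8 and 29.4 FPKM in Set *ROX*, 9.79 and 17.2 FPKM in Set NT, and no more than 0.0475 FPKM in any Root library. Reads of the overlapping pair cannot be told apart without strand.

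The YSL genes are neighbours on chromosome 2, Os02g0649900 (described as similar to yellow stripe 1) at 26171617 to 26174918 and *YSL15* at 26200136 to 26204468, with 25217 bases and no annotated gene between them. *YSL15* had 317 and 406 FPKM in Set *ROX* and 155 and 259 FPKM in Set NT libraries, so the Set *ROX* pair was the higher one. In the Root libraries the order was turned round, with 2.87 and 2.74 FPKM in *ROX* and 5.08 and 4.88 FPKM in NT. Of the 2 *YSL15* transcripts, the second made up 29.5% to 35.9% of the sum in all 8 libraries, so this large difference in level came with little difference in isoform. Os02g0649900 had 166 and 201 FPKM in Set *ROX* and 119 and 160 FPKM in Set NT libraries. It had 13.4 and 14.2 FPKM in Root *ROX* and 7.16 and 7.31 FPKM in Root NT libraries, with *ROX* above NT in both sets.

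The IRT genes, ferrous iron transporters of the plasma membrane, lie 8639 bases apart on chromosome 3, Os03g0667300 at 26276422 to 26277614 and Os03g0667500 at 26286254 to 26292018. Os03g0667500 was the one gene of the 10 with a high level in every library, at 119 and 162 FPKM in Set *ROX*, 89.4 and 138 FPKM in Set NT, 62.1 and 65.7 FPKM in Root *ROX*, and 107 and 103 FPKM in Root NT libraries. The Set NT and Root NT values overlapped, and the Root *ROX* pair was the lowest. Os03g0667300 had 57.1 and 34.9 FPKM in Set *ROX* and 35.0 and 33.7 FPKM in Set NT libraries, and was barely detected in the Root libraries, at 0.341 and 0.290 FPKM in *ROX* and 0.170 and 0.0251 FPKM in NT. The Root values stand for 24 fragments in *ROX* and 7 in NT, a ratio per depth of 3.34 with an exact 95% interval of 1.40 to 9.19, again for counting error only. Os03g0667500 shares 922 bases with Os03g0667400, which had 1.46 to 2.42 FPKM in the 8 libraries and so took few reads.

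**Figure D1:**
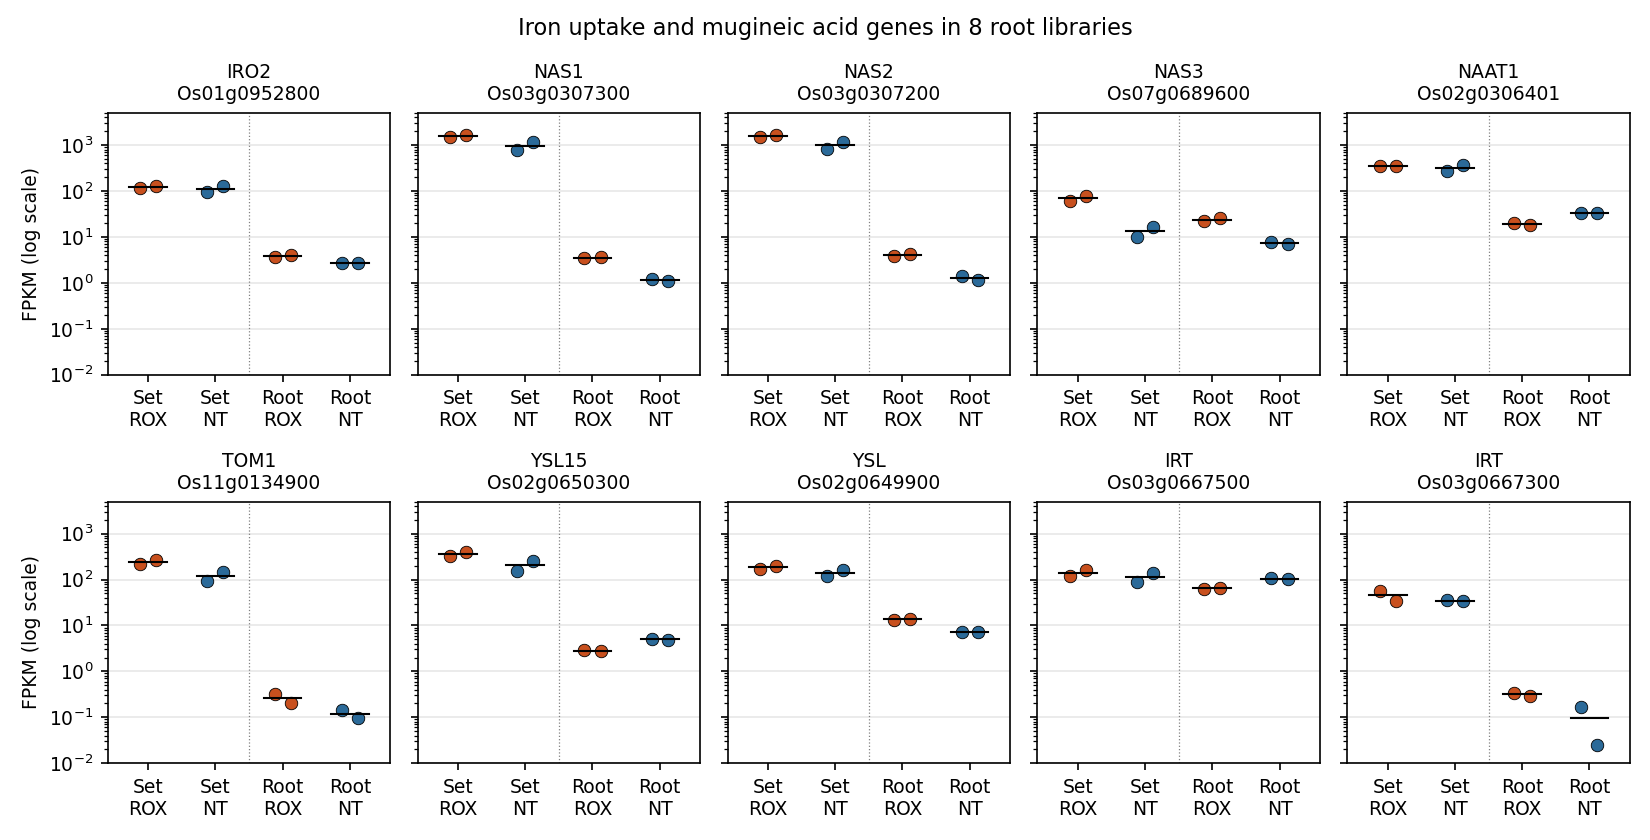
FPKM of the 10 iron genes in each of the 8 libraries on a log axis, 1 point per library, with *ROX* left of NT in the Set and Root libraries. In 8 genes every Set library lies above every Root library, by up to 3 orders of magnitude for *NAS1*, *NAS2* and *TOM1*, while Os03g0667500 and *NAS3* overlap between the sets.

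The order of the levels is given for the Set *ROX* and the Root NT libraries, which differ in both set and genotype. In the Set *ROX* libraries *NAS1* (1573 ± 131 FPKM) and *NAS2* (1551 ± 114 FPKM) led and overlapped each other, and *YSL15* (362 ± 62.5 FPKM) and *NAAT1* (354 ± 1.18 FPKM) came next and also overlapped (SD, n = 2 each). Below them stood *TOM1* (238 ± 33.6 FPKM), Os02g0649900 (184 ± 24.4 FPKM), Os03g0667500 (140 ± 30.5 FPKM), *IRO2* (123 ± 8.53 FPKM), *NAS3* (69.4 ± 10.8 FPKM) and Os03g0667300 (46.0 ± 15.8 FPKM), of which the neighbours Os03g0667500 and *IRO2* overlapped. In the Root NT libraries Os03g0667500 led at 105 ± 2.68 FPKM and *NAAT1* followed at 33.0 ± 0.0389 FPKM (SD, n = 2 each). *NAS3* (7.47 ± 0.504 FPKM) and Os02g0649900 (7.24 ± 0.107 FPKM) overlapped there, then came *YSL15* (4.98 ± 0.138 FPKM) and *IRO2* (2.77 FPKM in both libraries). *NAS2* (1.29 ± 0.177 FPKM) overlapped *NAS1* (1.15 ± 0.0839 FPKM), and *TOM1* (0.119 ± 0.0306 FPKM) overlapped Os03g0667300 (0.0976 ± 0.103 FPKM) at the bottom. In the Root *ROX* libraries *NAS2* (4.06 ± 0.193 FPKM) and *NAS1* (3.54 ± 0.114 FPKM) stood in the middle of the order, around *IRO2* (3.78 ± 0.269 FPKM).

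The first comparison was between the Set and Root libraries within NT, which shows how far these genes moved without the transgene. A change is given here on the log2(FPKM + 1) scale from limma with its standard error (SE), and a gene was called at a Benjamini-Hochberg adjusted p under 0.05 over all genes tested. This scale understates the change of genes near 0. Of the 10 genes, 9 were higher in Set NT than in Root NT and 0 lower, where 37.8% of all 26052 genes tested were called higher and 31.3% lower. The median difference of the 10 genes was 4.95, against 0.06 over all genes. *NAS1* (8.79, SE 0.19, adjusted p = 4.68e-05) and *NAS2* (8.75, SE 0.18, adjusted p = 4.45e-05) had the largest and the next largest increase of all genes tested. *TOM1* followed at rank 6 (6.69, SE 0.21), *YSL15* at 34 (5.07, SE 0.24), Os03g0667300 at 35 (5.01, SE 0.10) and *IRO2* at 40 (4.89, SE 0.13). Os02g0649900 stood at rank 86 with 4.08 (SE 0.14), and *NAAT1* at rank 226 with 3.21 (SE 0.14). *NAS3* was only just called (0.74, SE 0.22, adjusted p = 0.0333), and lost the call with quantile normalization (adjusted p = 0.0728) and without the filter on low values (adjusted p = 0.0569). Os03g0667500 was not called (0.08, SE 0.20, adjusted p = 0.741).

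As ratios of mean FPKM, the Set NT level was 848 times the Root NT level for *NAS1*, 774 times for *NAS2* and 982 times for *TOM1*, of which the last rests on 16 Root fragments. It was 352 times for Os03g0667300, on 7 Root fragments. The ratio was 41.6 for *YSL15*, 40.5 for *IRO2*, 19.3 for Os02g0649900, 9.60 for *NAAT1*, 1.81 for *NAS3* and 1.08 for Os03g0667500. The regulator, the enzymes that make and convert nicotianamine, the exporter and the importer of the complex thus all stood higher in the Set NT libraries, and *NAS3* and Os03g0667500 had the smallest differences of the 10 genes.

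The same comparison within *ROX*, added after the data were seen, called all 10 genes higher in the Set libraries, where 38.0% of 26056 genes were called higher and 31.1% lower. The median was 4.91, against 0.07 over all genes. *NAS1* (8.43, SE 0.08) and *NAS2* (8.26, SE 0.08) again ranked 1 and 2, *TOM1* (7.57, SE 0.12) ranked 4 and *YSL15* (6.56, SE 0.13) ranked 7. Here *NAS3* (1.49, SE 0.13, adjusted p = 0.000329) and Os03g0667500 (1.11, SE 0.15, adjusted p = 0.00175) were called too. Over both genotypes, every Set library lay above every Root library in 8 of the 10 genes, as in 36.1% of all genes, and the exceptions were *NAS3* and Os03g0667500. *RCc3* moved in the same direction by 2.16 in NT and 3.31 in *ROX*, and the green tissue markers moved in the opposite one, with 9 of 10 tested lower and 1 higher in Set NT. The part of tissue composition, as these markers show it, in the difference was not tested.

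**Figure D2:**
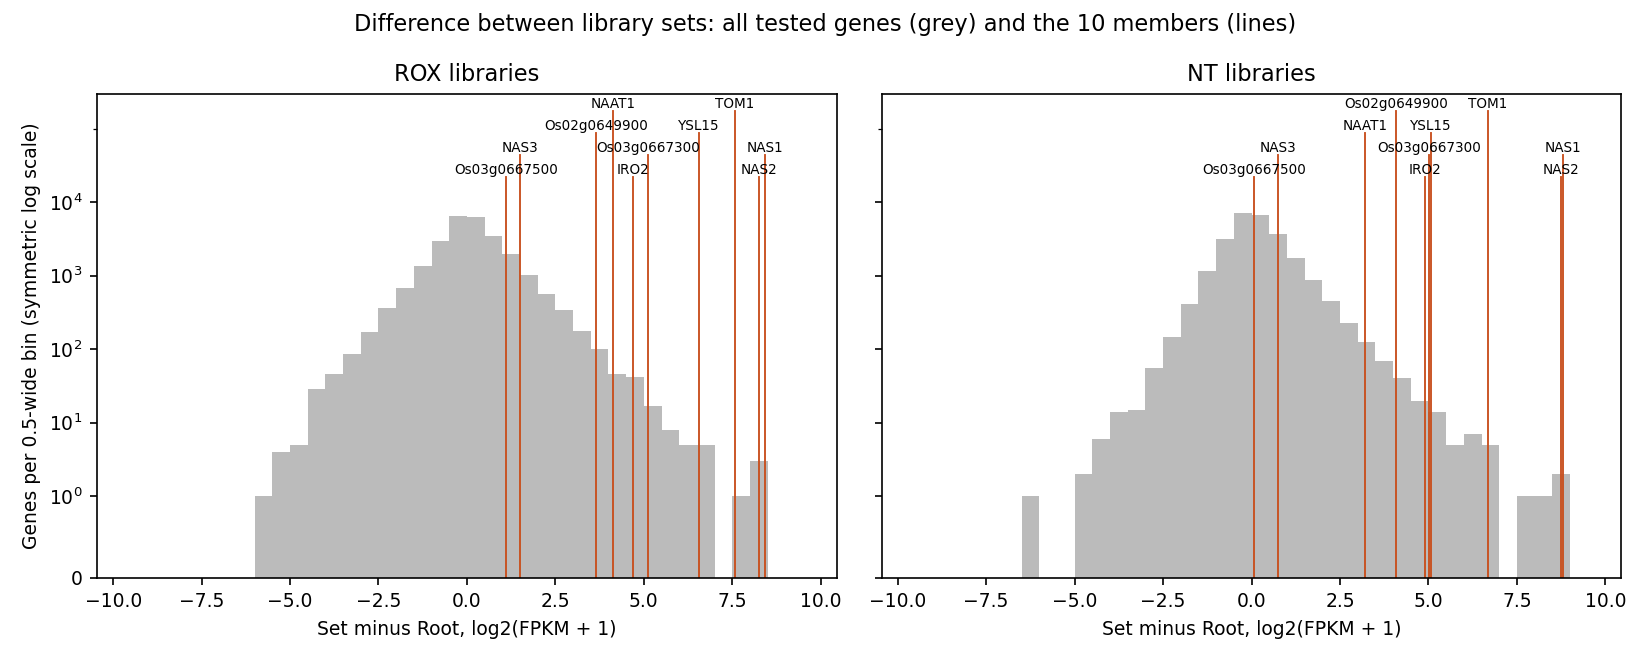
Number of genes (symmetric log axis) by their Set minus Root difference on the log2(FPKM + 1) scale, in *ROX* libraries on the left and NT libraries on the right, with a line for each of the 10 iron genes. *NAS1* and *NAS2* lie at the far right of both distributions, at 8.43 and 8.26 in *ROX* and 8.79 and 8.75 in NT, and Os03g0667500 lies nearest to 0.

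The second comparison asked how these genes differed between the *ROX* and NT libraries. In the fit of 4 *ROX* against 4 NT libraries with the set as a term, 4 of the 10 genes were higher in *ROX* and 0 lower, where 2.74% of all 26136 genes tested were called higher (715) and 4.34% lower (1133). With scaling by median ratios 848 genes were called higher and 734 lower, and the iron genes again counted 4 higher and 0 lower. *NAS3* rose by 1.93 (SE 0.20, adjusted p = 0.00332), *NAS1* by 0.90 (SE 0.14, adjusted p = 0.0138), *NAS2* by 0.90 (SE 0.14, adjusted p = 0.0154) and the YSL gene Os02g0649900 by 0.62 (SE 0.13, adjusted p = 0.0331). So the genes called were the 3 nicotianamine synthases and 1 transporter. The limits in the study's methods are a 2-fold change at an unadjusted p under 0.05. On the log2(FPKM + 1) scale *NAS3* alone passed them, where 1.31% of all genes passed upwards and 0.314% downwards. With a pseudocount of 0.1 *NAS1* (1.14, adjusted p = 0.0193) and *NAS2* (1.12, adjusted p = 0.0245) were past 2-fold too. The median change of the 10 genes was 0.46, against -0.05 over all genes.

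The other genes were not called. *TOM1* had a change of 0.61 (SE 0.21, adjusted p = 0.121), which passed only with a pseudocount of 0.1 (0.87, adjusted p = 0.0357). *IRO2* had 0.24 (SE 0.09, adjusted p = 0.146), Os03g0667300 had 0.32 (SE 0.14, adjusted p = 0.199) and *YSL15* had 0.09 (SE 0.31, adjusted p = 0.867). *NAAT1* (-0.29, SE 0.19, adjusted p = 0.357) and Os03g0667500 (-0.20, SE 0.24, adjusted p = 0.619) had negative values. *IRO2* passed without Set NT 2 (0.34, adjusted p = 0.0348). *NAS3* was called with each of the 8 libraries left out in turn (adjusted p = 0.00212 to 0.0179). *NAS1* and *NAS2* lost the call without any one of the 4 Root libraries (adjusted p = 0.0555 to 0.0580 for *NAS1* and 0.0589 to 0.0624 for *NAS2*), and Os02g0649900 lost it without any Root library, without Set *ROX* 2 and without Set NT 1 (0.0683 to 0.114). In limma's fit without the set as a term 0 of the 10 genes were called, with *NAS3* the only one at an unadjusted p under 0.05 (1.93, SE 0.46, adjusted p = 0.348), and 0 were called when each pair of libraries was averaged (*NAS3* 1.92, adjusted p = 0.576).

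Within the Set libraries all 10 genes had a positive value, with a median of 0.53, against -0.02 over all genes. With a library left out *IRO2* reached -0.0412 and *NAAT1* -0.0361, so their sign was not stable. Of the 10 genes 1, *NAS3*, was called higher (2.31, SE 0.24, adjusted p = 0.0281), where 0.807% of all 26131 genes were called higher and 0.432% lower. The *NAS3* mean was 69.4 ± 10.8 FPKM in *ROX* and 13.5 ± 4.70 FPKM in NT, a ratio of 5.13 (SD, n = 2 each). The call was lost without any one of the Set libraries, which leaves 1 library in an arm that is assumed to vary like the other pair, with 2.15 (adjusted p = 0.0944) without Set *ROX* 2 and 1.97 (adjusted p = 0.0965) without Set NT 1, and also without the filter on low values (adjusted p = 0.0720). *TOM1* averaged 238 ± 33.6 FPKM in *ROX* and 117 ± 36.5 FPKM in NT (1.05, SE 0.23, adjusted p = 0.140), and it was the other gene past the 2-fold limit at an unadjusted p under 0.05, where 0.922% of genes passed upwards and 0.597% downwards. *YSL15* had 0.84 (SE 0.27, adjusted p = 0.250), *NAS1* 0.72 (SE 0.23, adjusted p = 0.247) and *NAS2* 0.65 (SE 0.21, adjusted p = 0.251). Both *ROX* libraries lay above both NT libraries in 6 genes, these 3 with *TOM1*, *NAS3* and Os02g0649900, and below in 0, where this held of 20.4% and 27.6% of all genes. The Set names carry a set number, 1 or 2, in both genotypes. Against the NT library of the same number, *ROX* was higher in both numbers for 9 genes, all but *NAAT1*, and lower in both for 0, as for 26.5% and 36.5% of all genes. Number 2 was above number 1 in both genotypes for 8 of the 10 genes, all but *NAAT1* and Os03g0667300, as for 25.4% of all genes. The NT libraries themselves differed widely, as with 775 and 1167 FPKM for *NAS1*.

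Within the Root libraries 8 of the 10 genes could be tested, since *TOM1* and Os03g0667300 had a mean FPKM under 0.5. The pairs of Root libraries lay very close together, and 20.8% of all 25090 genes were called higher and 32.0% lower, so a call here is a weak criterion. Of the 8 genes 5 were higher in *ROX* and 3 lower, and in each of them the *ROX* and NT pairs did not overlap, where 30.0% of all genes had *ROX* above NT and 47.8% below. *NAS3* rose by 1.55 (SE 0.08, adjusted p = 7.99e-06), with 23.9 ± 2.27 FPKM in *ROX* and 7.47 ± 0.504 FPKM in NT (SD, n = 2 each). *NAS2* rose by 1.14 (SE 0.09, adjusted p = 7.30e-05), *NAS1* by 1.08 (SE 0.08, adjusted p = 6.04e-05), Os02g0649900 by 0.84 (SE 0.06, adjusted p = 4.40e-05) and *IRO2* by 0.34 (SE 0.08, adjusted p = 0.0111). Os01g0952900, which overlaps *IRO2*, had 14.3 and 15.1 FPKM in Root *ROX* and 1.20 and 1.03 FPKM in Root NT. The part of its reads in the small *IRO2* rise was not tested. The call of *IRO2* was lost without Root *ROX* 2 (0.29, adjusted p = 0.0524). As ratios of mean FPKM, *ROX* stood at 3.20 times NT for *NAS3*, 3.14 times for *NAS2* and 3.10 times for *NAS1*, though *NAS1* and *NAS2* reached only 3.54 ± 0.114 and 4.06 ± 0.193 FPKM in Root *ROX* (SD, n = 2 each). These 3 genes were past the 2-fold limit at an unadjusted p under 0.05, which 4.23% of all genes passed upwards and 0.976% downwards. Within both sets *ROX* lay above NT in 5 genes, the nicotianamine synthases, Os02g0649900 and *TOM1*, and below NT in 0, against 7.36% and 15.4% of all genes. The Root order of *TOM1*, not tested here, rests on 35 fragments in *ROX* and 16 in NT.

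The 3 genes that fell in the Root *ROX* libraries were *NAAT1* by 0.75 (SE 0.05, adjusted p = 3.16e-05), Os03g0667500 by 0.71 (SE 0.04, adjusted p = 1.87e-05) and *YSL15* by 0.65 (SE 0.08, adjusted p = 0.000428). Their mean FPKM in *ROX* was 0.583, 0.608 and 0.563 times that in NT. Both transporters of this group bring iron into the root, one as the ferrous ion and one as the mugineic acid complex. *RCc3* fell by 0.998 in the same libraries, and all 9 green tissue markers tested were also lower in Root *ROX*. Their part in the lower values was not tested.

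**Figure D3:**
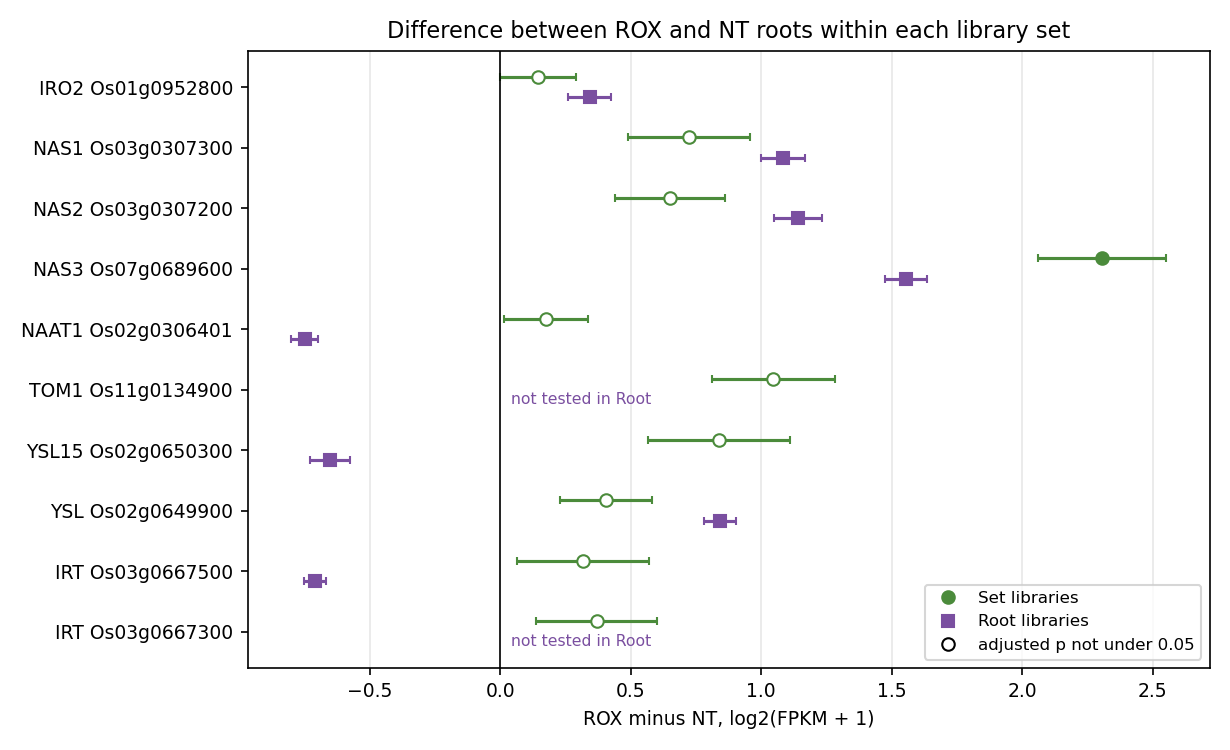
*ROX* minus NT on the log2(FPKM + 1) scale with its standard error for each of the 10 iron genes, in the Set libraries and in the Root libraries (2 *ROX* and 2 NT libraries each, limma, filled where called). *NAS3* is far above 0 in both, at 2.31 and 1.55, and *NAAT1*, *YSL15* and Os03g0667500 lie above 0 in the Set and below 0 in the Root libraries.

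Whether the *ROX* effect differed between the sets was tested by an interaction term, with Set effect minus Root effect as its value. It was called for 3 of the 10 genes, all higher in the Set libraries, where 10.8% of all genes were called higher and 10.7% lower. These were the same 3 genes that fell in Root *ROX*, at 1.49 for *YSL15* (SE 0.31, adjusted p = 0.0166), 1.03 for Os03g0667500 (SE 0.29, adjusted p = 0.0469) and 0.92 for *NAAT1* (SE 0.17, adjusted p = 0.0112). *OsERF48* itself differed by 1.06 (SE 0.18, adjusted p = 0.00755), with a larger excess in the Set libraries. For *YSL15* both Set *ROX* libraries lay above both Set NT libraries and both Root *ROX* libraries below both Root NT libraries, an arrangement found in 7.99% of all genes. The call of *YSL15* was lost without any one Root library (adjusted p = 0.0586 to 0.0657), that of Os03g0667500 without any one Root library, Set *ROX* 2 or Set NT 1 (0.0730 to 0.138) or without the filter (0.0781), and that of *NAAT1* without Root *ROX* 2 (0.0531). *TOM1* (0.88, SE 0.28, adjusted p = 0.0627), *NAS3* (0.75, SE 0.30, adjusted p = 0.116) and *NAS2* (-0.49, SE 0.22, adjusted p = 0.154) did not pass, which does not show that their effects were alike. Without Set NT 2 the value was 1.20 for *TOM1* and 1.09 for *NAS3*. With a pseudocount of 0.1 that of *TOM1* was 0.36 (adjusted p = 0.501). As a ratio of mean FPKM, *TOM1* in *ROX* stood at 2.03 times NT in the Set libraries. In the Root libraries the ratio was 2.16, on 35 fragments in *ROX* and 16 in NT. A larger *TOM1* effect in the Set libraries thus depended on the scale. *NAS2* (-0.75, adjusted p = 0.0132), *NAS1* (-0.66, adjusted p = 0.0141) and Os02g0649900 (-0.65, adjusted p = 0.0322) passed without Set NT 1, with the larger effect in the Root libraries, as did *NAS2* with a pseudocount of 0.1 (-0.93, adjusted p = 0.0312).

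Other iron genes were taken from 2 lists, one by words in the gene descriptions and one by identifier, 51 genes together of which 46 passed the filter on low values. Between *ROX* and NT over 8 libraries 3 of them were higher and 2 lower, with a median of -0.01, beside 2.74% of all genes higher and 4.34% lower. Those higher were Os03g0379300, a helix-loop-helix protein (0.50), Os05g0551000, a RING-type zinc finger protein (0.49), and Os11g0135000, described as similar to a major facilitator antiporter (0.53). Those lower were Os12g0106000, described as similar to ferritin 1, the iron storage protein (-0.50), and Os01g0503400, described as similar to the metal transporter Nramp6 (-0.26). All of these changes were under 2-fold.

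Between Set NT and Root NT, 22 of the 46 genes were higher and 9 lower, with a median of 0.26, beside 37.8% of all genes higher and 31.3% lower. In *ROX* 30 were higher and 9 lower, with a median of 0.44, beside 38.0% and 31.1% of all genes. *OsNramp1* (Os07g0258400), a metal transporter, had 97.2 and 116 FPKM in Set *ROX* and 73.0 and 99.8 FPKM in Set NT, against 1.42 and 1.52 FPKM in Root *ROX* and 1.28 and 1.18 FPKM in Root NT libraries. The helix-loop-helix gene Os03g0379300 had 103 and 112 FPKM in Set *ROX* and 83.7 and 80.0 FPKM in Set NT, against 12.6 and 11.7 FPKM in Root *ROX* and 7.57 and 7.74 FPKM in Root NT libraries. Os07g0257200, described as similar to *OsNramp1*, had 86.3 and 114 FPKM in Set *ROX* and 61.7 and 66.2 FPKM in Root *ROX*. In NT it had 82.5 and 97.9 FPKM in the Set and 116 and 115 FPKM in the Root libraries. *OsNramp1* (Os07g0258400) and Os03g0379300 thus followed the direction of *IRO2*, and Os07g0257200 did so in *ROX* but not in NT. Other list genes in this direction included Os12g0282000, at 20.9 to 49.9 FPKM in the Set and 0 to 0.151 FPKM in the Root libraries. Os01g0647200 had 9.46 to 28.8 and 0 to 0.169 FPKM, and Os04g0381700 had 43.5 to 81.6 and 4.39 to 5.41 FPKM. Os03g0237100 had 124 to 292 and 33.9 to 48.6 FPKM. Against these stand the 9 genes called lower in each genotype. The genes described as similar to ferritin 1, Os11g0106700 and Os12g0106000, ran the other way. Os11g0106700 had 5.18 and 5.65 FPKM in Set *ROX* and 7.86 and 5.21 FPKM in Set NT, against 16.8 and 18.8 FPKM in Root *ROX* and 29.0 and 28.2 FPKM in Root NT libraries. Os12g0106000 had a Set minus Root difference of -1.77 in *ROX* and -1.90 in NT, both called. Os08g0101000, an ABI3/VP1 factor annotated for the regulation of the iron-deficiency response, had -1.47 in *ROX* and -1.34 in NT, both called. Os01g0508100, of a ferritin and ribonucleotide reductase-like family, had 4.37 and 4.51 FPKM in Set *ROX* and 13.2 and 7.64 FPKM in Set NT, against 16.3 and 18.4 FPKM in Root *ROX* and 8.97 and 8.13 FPKM in Root NT libraries, and was lower in the Set libraries in *ROX* but not called in NT. Ferritin is also abundant in plastids of green tissue, and the green tissue markers were lower in the same libraries. Their part in the ferritin values was not tested.

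Nicotianamine synthesis consumes S-adenosylmethionine and leaves methylthioadenosine, which the methionine cycle recycles. Of 14 genes listed for this cycle and steps around it, 12 were tested. The list includes genes described as similar to formate dehydrogenase, adenine phosphoribosyltransferase and ribose-5-phosphate isomerase. Of the 12 genes, 10 were higher and 1 lower in Set NT than in Root NT, with a median of 1.24. Of all genes 37.8% were higher and 31.3% lower. In *ROX* 9 were higher and 1 lower, with a median of 1.65, beside 38.0% and 31.1% of all genes. The methylthioribose kinase gene Os04g0669800 had 139 and 170 FPKM in Set *ROX* and 100 and 135 FPKM in Set NT, against 27.7 and 26.6 FPKM in Root *ROX* and 31.4 and 31.3 FPKM in Root NT libraries. Os03g0161800, a dioxygenase of the cycle, had 405 and 394 FPKM in Set *ROX* and 211 and 278 FPKM in Set NT, against 65.7 and 65.5 FPKM in Root *ROX* and 67.6 and 67.5 FPKM in Root NT libraries. Os11g0216900, described as similar to IDI2, had 56.8 and 72.8 FPKM in Set *ROX* and 30.0 and 43.2 FPKM in Set NT, against 6.76 and 6.52 FPKM in Root *ROX* and 9.18 and 9.04 FPKM in Root NT libraries. Os10g0419400, described like Os03g0161800 as similar to SIPL, did not follow these in *ROX*, with 66.8 and 34.6 FPKM in Set and 68.9 and 68.3 FPKM in Root libraries. In NT it had 55.4 and 34.2 FPKM in Set and 19.7 and 20.8 FPKM in Root libraries. Between *ROX* and NT over the 8 libraries limma called 0 of the 12 in either direction, with 4 higher and 1 lower at an unadjusted p under 0.05 and a median of 0.19.

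**Figure D4:**
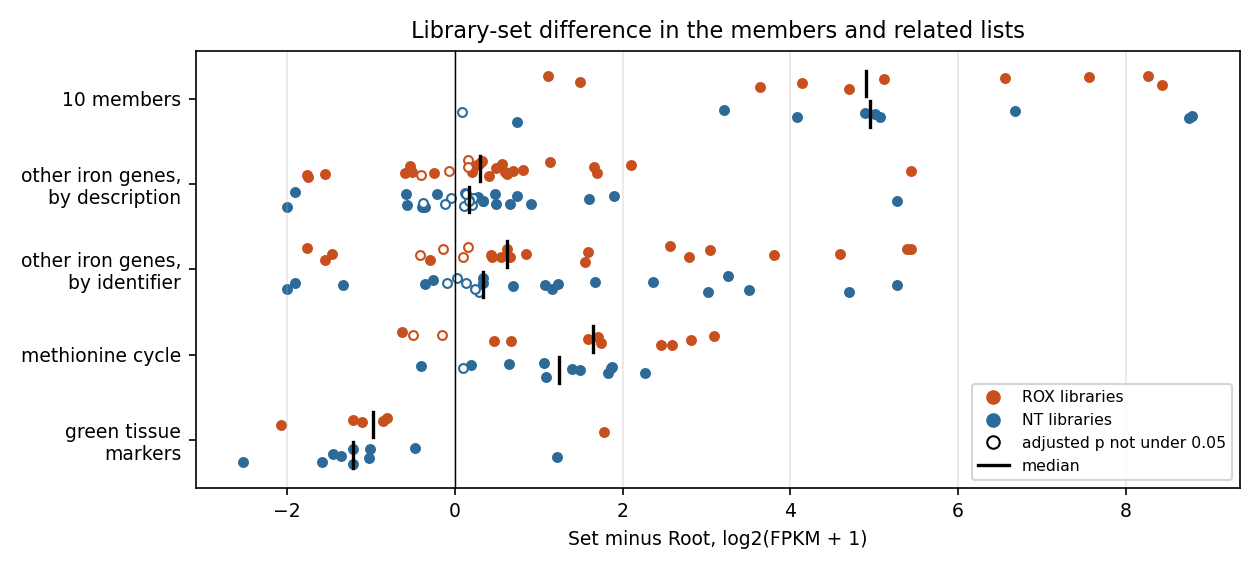
Set minus Root on the log2(FPKM + 1) scale, 1 point per gene tested (filled where called), for the 10 iron genes, the 2 lists of other iron genes, the methionine cycle genes and the green tissue markers, with *ROX* above NT and the median as a bar. The medians of the 10 iron genes are 4.91 in *ROX* and 4.95 in NT, those of the methionine cycle are 1.65 and 1.24, and the other iron genes spread on both sides of 0.

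The genes most like *IRO2* were sought by Pearson's r of log2(FPKM + 1) over the 8 libraries among genes averaging 5 FPKM or more. The 5 nearest were outside the iron lists, Os06g0140900 (a sigma factor domain protein, r = 0.99985), Os03g0685500 (a CHCH domain protein, 0.99982), Os08g0505200 (a tRNA-binding arm protein, 0.99956), Os06g0126500 (a ubiquitin domain protein, 0.99945) and Os05g0407100 (0.99932). Of the iron genes *NAS1* (0.999) and *NAS2* (0.998) were nearest to *IRO2*, and Os03g0667500 (0.656) and *NAS3* (0.532) the least like it. The 8 libraries fall into the Set and Root clusters, so r mainly carries the difference between them, and many genes with such a difference reach a high r. For instance, Os06g0140900 had 35.1 to 38.6 FPKM in the Set and 14.6 to 15.9 FPKM in the Root libraries, a far smaller step than that of *IRO2*.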

How the data were processed

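From strand-specific libraries, sequenced by a service provider, the authors deposited gene and transcript levels as FPKM. Transcript lengths in bases stand in the authors' table. Processing notes name build IRGSP-1.0. The aligner, the quantification tool and the handling of strand and shared reads are not given in the sources used here. Column names gave genotype and library set, and 4 columns per table matched no sample and were not used.

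Genes averaging 0.5 FPKM or more over the libraries fitted were tested as log2(FPKM + 1). limma 3.58.1 in R 4.3.3 (lmFit, eBayes with trend) gave changes, standard errors and p-values, Benjamini-Hochberg adjusted over all genes tested. The fits were run on simulated counts, drawn independently and with the same added spread in all libraries. The real pairs had a median variance of 4.9 (*ROX*) and 4.4 (NT) times sampling noise in the Set libraries. In the Root libraries it was 1.9 (*ROX*) and 1.2 (NT) times. The simulation therefore cannot show how the p-values behave under unequal spread or with technical replicates. Depth was estimated from the steps of low FPKM values, of which 94.6% to 95.7% fell within 0.1 of a whole fragment.

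All 10 genes, *OsERF48*, the list genes called over 8 libraries and the 5 genes most like *IRO2* are named. Other list genes named for the sets were chosen after their values were seen. The genes and lists were chosen with earlier results of these data known, and so was the set as a term of the fit. Alternatives covered this term, a replicate block, the pseudocount, the filter, the scaling, pair means, transcript sums, the variance trend and each library left out. Promoter motifs and protein sequences were not analysed here.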

Additional observations from a re-analysis of the deposited data

Results flagged for a closer look

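Of the 10 iron genes, 3 had a *ROX* effect that differed between the Set and Root libraries by limma's interaction test, which is why they are listed here. By the same test 10.8% of all 26136 genes were called higher and 10.7% lower, so such a call was common. The Set effect minus the Root effect was 1.49 for *YSL15* (adjusted p = 0.0166), 1.03 for the IRT gene Os03g0667500 (adjusted p = 0.0469) and 0.92 for *NAAT1* (adjusted p = 0.0112) on the log2(FPKM + 1) scale. In each, both Root *ROX* libraries lay below both Root NT libraries, while in the Set libraries *ROX* was above NT for *YSL15* and overlapped it for the others. The cause was not tested, and line, growth and harvest cannot be told apart from the set.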

How the results depend on the processing

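The count of iron genes higher in *ROX* over 8 libraries, 4 as reported, was 0 without the set as a term (39 genes higher and 6 lower in all, 1433 at an unadjusted p under 0.05) and 0 with pair means (1 and 0 genes), 5 with a pseudocount of 0.1, and 4 with all other settings but the replicate block. With a mean FPKM limit of 5, 501 genes were higher and 725 lower, and with scaling by median ratios 848 and 734. With a library left out the count was 1 to 5 (1 without any one Root library, 3 without Set *ROX* 2 or Set NT 1), with 221 to 704 genes higher and 183 to 1203 lower. What the numbers in the library names mark (set 1 and 2, Root 1 and 2) is not given, and deviations of same-numbered libraries correlated at 0.257 in the Set and 0.024 in the Root libraries. A replicate block by number left 2 iron genes, *NAS3* (adjusted p = 0.0229) and *NAS1* (0.0433), without *NAS2* (0.0592) and Os02g0649900 (0.0773), and 146 genes higher and 128 lower. Blocks within a set were added after seeing the data. The replicate block within the Set libraries called 2 iron genes, *NAS3* (2.31, adjusted p = 0.00266) and *TOM1* (1.05, adjusted p = 0.0256), with 329 genes higher and 234 lower in all, and that within the Root libraries changed no call of the 10 genes. Within the Set libraries the count, 1, was 0 without the filter and 0 to 0 with a library left out (0 without each of the 4). Within the Root libraries the counts were 5 to 6 higher and 3 lower under the settings tried, and 4 higher without Root *ROX* 2. The interaction counts, 3 higher and 0 lower, were 2 higher without the filter, 1 lower with a pseudocount of 0.1, and 0 to 5 higher and 0 to 3 lower with a library left out. Set minus Root in NT, 9 genes, gave 8 without the filter or with quantile normalization.

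Values that changed sign were *YSL15* over 8 libraries (-0.20 to 0.25 with a library left out), the interaction of Os03g0667300 (-0.80 with a pseudocount of 0.1, and -0.24 to 0.45 with a library left out), and the Set values of *IRO2* (-0.0412 to 0.33) and *NAAT1* (-0.0361 to 0.39) with a library left out. None of these was called as reported. Of single-gene values, 223 kept direction and call under the other settings, 14 lost a call, 4 gained one and 1 changed sign, and with a library left out 191 kept both, 30 lost a call, 6 gained one and 5 changed sign. The cause of these changes was not tested. Depth limits *TOM1* and Os03g0667300 in the Root libraries, and libraries of a pair that are technical replicates would make the p-values too small.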
